A study of Mus musculus with 9 samples.

Results

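The cytosolic ribosomal protein genes and their paralogs were examined in mouse testis. Members were the rows of the expression table whose symbol begins with Rpl or Rps and a digit, or with Rplp or Rpsa. Left out were 7 names with "-ps", a suffix of pseudogene names, and 10 names that start with Rps6k, which are kinases. This gave 82 of 38685 rows, of which 49 carried a large subunit name (Rpl) and 33 a small subunit name (Rps). Rps19bp1, a protein that binds a ribosomal protein and is not part of the ribosome, met the rule and was kept. Rpl36al, Rps4l, Rpl13a, Rpl24 and Rps13 were not analysed here.

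RNA was taken from whole testes of C57BL/6 males, freed of the tunica albuginea, and sequenced near the 3′ end of polyadenylated transcripts with QuantSeq. The samples comprised 3 libraries labelled Prm2+/+ (wildtype), 3 labelled Prm2+/- (1 intact Prm2 allele) and 3 labelled Prm2-/- (deficient), from lines in which Prm2, a protamine gene, had been edited in oocytes with CRISPR/Cas9. No treatment was given, and the ages are not given in the sources used here. Each library is taken as 1 male, and since the labels do not say so, p-values measure only the spread between these samples.

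A ribosome consists of a large and a small subunit, and its proteins surround ribosomal RNA that does the catalysis. Most of these proteins are needed in equal numbers, and their genes are active in every cell type. Several lie on the X chromosome, which is silenced in male germ cells during meiosis, and retrocopies on autosomes, such as Rpl10l and Rpl39l, are known from male germ cells. In a whole testis, fewer cells of a type and less RNA per cell cannot be told apart.

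The pairs below show how a paralog on an autosome relates to its parent on the X chromosome. For Rpl39l and Rpl39 the whole coding sequence is shown without the stop codon, and for Rpl10l and Rpl10 the stretch of coding bases 64 to 213, which held the most differences of any stretch of that length. Capitals mark the bases that differ within a pair. The sequences are from GENCODE M21 on GRCm38.
Rpl39l: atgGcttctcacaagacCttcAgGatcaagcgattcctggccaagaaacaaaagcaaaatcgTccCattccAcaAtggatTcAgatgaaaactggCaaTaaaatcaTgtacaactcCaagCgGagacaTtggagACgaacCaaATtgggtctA
Rpl39: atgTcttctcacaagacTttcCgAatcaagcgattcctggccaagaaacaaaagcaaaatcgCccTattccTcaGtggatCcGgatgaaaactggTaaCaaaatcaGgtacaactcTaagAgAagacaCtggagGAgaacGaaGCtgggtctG
Rpl10l: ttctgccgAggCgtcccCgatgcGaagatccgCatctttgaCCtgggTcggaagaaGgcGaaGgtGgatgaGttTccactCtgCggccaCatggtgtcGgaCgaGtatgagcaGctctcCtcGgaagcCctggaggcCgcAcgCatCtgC
Rpl10: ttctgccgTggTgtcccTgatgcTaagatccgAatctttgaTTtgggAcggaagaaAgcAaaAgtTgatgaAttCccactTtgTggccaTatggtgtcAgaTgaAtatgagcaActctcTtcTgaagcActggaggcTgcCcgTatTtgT

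Rpl39l lies on chromosome 16 from 10170226 to 10174911 and Rpl39 on the X chromosome from 37082520 to 37085402 (GRCm38). Their coding sequences differed at 23 of 153 bases, and the proteins at 3 of 51 residues. Rpl10l lies on chromosome 12 from 66283379 to 66284401 and Rpl10 on the X chromosome from 74270812 to 74273135. They differed at 98 of 642 coding bases, and at 3 of 214 residues. Neither pair shared a stretch of 50 bases, the length of a read, within the last 300 bases of the transcripts (0 shared), so reads of paralog and parent were distinct there. Rpl39l lies 616469 bases from Prm2 itself.

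The recovered counts behind the normalized values summed to between 3629929 and 4490411 per library, and the members took between 2.46% and 2.76% of them. The edited gene itself did not have a lower transcript level in the libraries labelled Prm2-/- (37810 ± 4344 normalized counts for Prm2, SD, n = 3) than in those labelled Prm2+/+ (33046 ± 5732), so its level does not check the labels, and genotypes are those of the labels. Replicate 3 of Prm2+/+ stood apart: 24.7% of the 5890 features with a mean of at least 100 normalized counts lay more than 1.5-fold off the mean of its 2 mates, against 7.91% to 13.6% in the other 8 libraries. Among the members it was 12 of 81 in that library and 1 to 5 in the others. Where leaving it out moved a fitted difference of a single member by more than 1.5 times, the value without it is given beside that difference. Markers of elongating spermatids summed to between 206042 and 220950 normalized counts in Prm2+/+ and between 199466 and 208825 in Prm2-/-, and 0 of the 6 tested were called. Markers of spermatocytes had a wide range in Prm2+/+, from 7506 to 38072, against 32885 to 34338 in Prm2-/- (0 of 6 called). The median log2 fold change of these 6 in Prm2-/- against Prm2+/+ was 0.08, and which genes carried the range of the sum was not examined. Sertoli cell markers summed to between 2406 and 3220 and between 2752 and 3008 in the same groups (0 of 6 called), so both germ cells and somatic cells were present, and the part of cell composition in any value below was not tested.

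In Prm2+/+ the tested members lay above the median of the tested features with a coding transcript length, and they spanned a wide range. Levels were compared as normalized counts per kb of spliced transcript. Reads came from the 3′ end, where length matters less than in whole-transcript libraries, so the order by plain count is given too. The 81 members with enough counts for a test had a median of 1308 per kb in Prm2+/+, against 27.8 for the 12654 tested features with a coding transcript length. By plain count the medians were 1017 and 72.9, closer together, as the median transcript length was 774 bases for the members and 2580 for those features. Per kb, 2.68% of those features lay above the median member. That share was not taken by plain count, where the highest of those features had 102125 normalized counts. The range ran from 63.5 per kb for Rpl7l1 to 10548 for Rps29, or 166-fold, while by plain count it ran from 124 for Rpl10 to 4688 for Rpl37, or 37.8-fold. Small subunit names had a median of 1442 per kb and large subunit names one of 1087, and by plain count the medians were 1036 and 939.

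**Figure D1:**
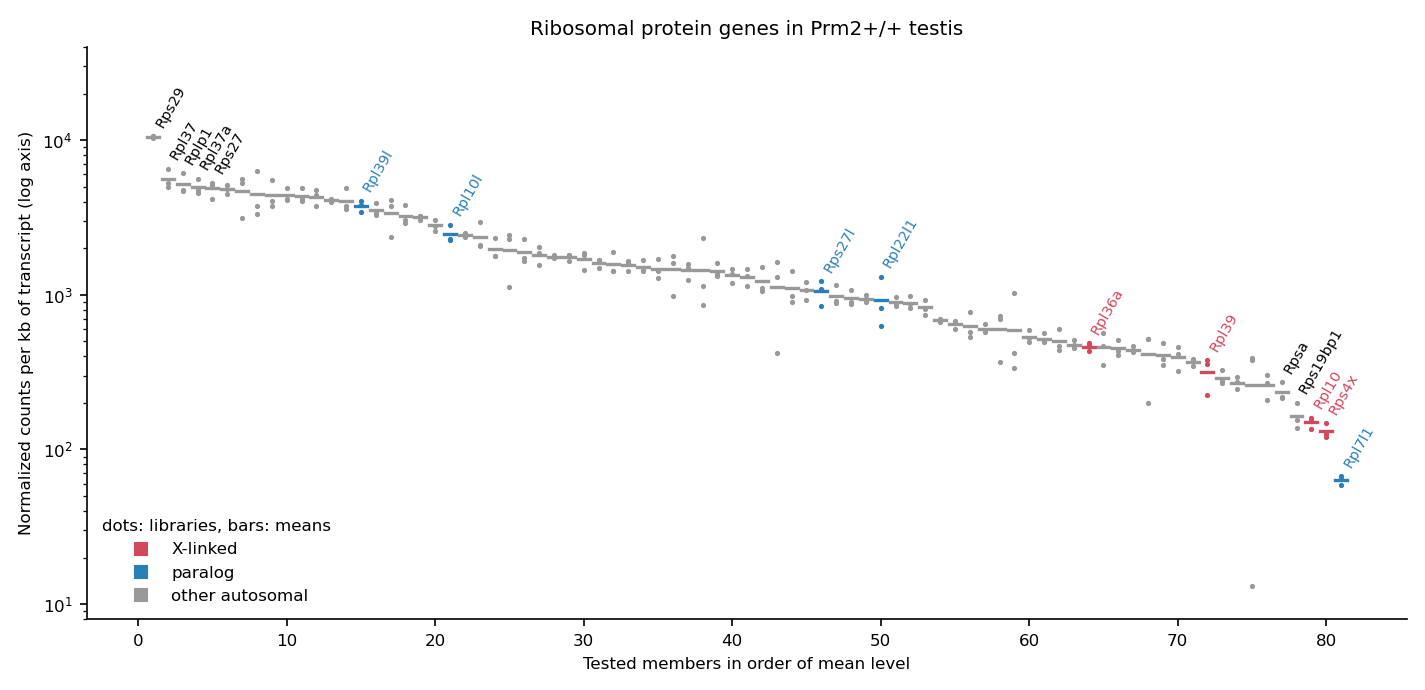
Level of each tested member in Prm2+/+ testis, in normalized counts per kb of transcript on a log axis, with the members in order of their mean; dots are the 3 libraries and bars their mean. Rps29 stands at 10548, Rpl39l and Rpl10l at 3764 and 2470, and the X-linked members (red) between 132 and 463.

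The highest per kb in Prm2+/+ were Rps29 at 10548 ± 190, Rpl37 at 5614 ± 809, Rplp1 at 5216 ± 811, Rpl37a at 4995 ± 558 and Rps27 at 4869 ± 604 (SD, n = 3). Rps29 and Rps27 sit in the small subunit, Rpl37 and Rpl37a in the large one, and Rplp1 in the stalk that recruits translation factors. The lowest were Rpl7l1 at 63.5 ± 4.27, Rps4x at 132 ± 13.9, Rpl10 at 150 ± 12.9, Rps19bp1 at 165 ± 32.0 and Rpsa, the laminin receptor homologue of the small subunit, at 235 ± 31.5. Neighbours in this order could mostly not be separated: in 4 of 80 neighbouring pairs the 3 libraries of the higher gene all lay above those of the lower. The annotated transcripts of Rps15a (5130 bases) and Rps20 (3706 bases) are long for this family, which lowers their level per kb. By plain count Rpl37 (4688 ± 676) and Rps20 (4132 ± 2319) stood above Rps29 (4114 ± 74.2), and Rps27 had 1680 ± 208. At the lower end by count were Rpl10 (124 ± 10.7), Rpl7l1 (124 ± 8.46), Rps4x (128 ± 13.5), Rps19bp1 (138 ± 26.8) and Rpl29 (185 ± 34.5), in place of Rpsa with 415.

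The 4 members on the X chromosome were low. Their levels in Prm2+/+ were 132 per kb for Rps4x, 150 for Rpl10, 319 for Rpl39 and 463 for Rpl36a, with a median of 234 against 1426 for the 77 autosomal members tested. Of these 77, 76 lay above Rps4x, 76 above Rpl10, 70 above Rpl39 and 63 above Rpl36a. On the plain count, which does not divide by length, 77 lay above Rpl10, 76 above Rps4x, 74 above Rpl39 and 73 above Rpl36a. A sequence limit applies to this group. Of the 50-base words in the last 300 bases of their transcripts, 100% of those of Rpl36a, 90.4% of those of Rpl10, 62.2% of those of Rps4x and 21.1% of those of Rpl39 also occur in the transcript of another gene. The authors removed rows typed as pseudogenes, so reads placed there were not analysed here. For Rpl10 and Rpl36a, rows of genes that share these words and are typed as protein coding remained. With those rows added, Rpl10 had 180, 198 and 210 normalized counts in Prm2+/+, and Rpl36a had 264, 245 and 272. The median autosomal member had 1036 by plain count. The part of read placement in these low levels was not tested.

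Against this, the paralogs of the X-linked genes were high. Rpl10l had 2310, 2358 and 2912 normalized counts in the 3 Prm2+/+ libraries, 2069, 2373 and 2437 in Prm2+/-, and 2160, 2184 and 2207 in Prm2-/-. Rpl10 had 112, 133 and 127 in Prm2+/+, 140, 113 and 141 in Prm2+/-, and 63.4, 110 and 128 in Prm2-/-. The ranges of paralog and parent did not overlap in any library. Per kb, Rpl10l exceeded Rpl10 by 16.5 ± 2.09 times in Prm2+/+, 14.3 ± 2.53 times in Prm2+/- and 19.2 ± 7.30 times in Prm2-/- (SD, n = 3), and the wide spread of the last came from replicate 1, where Rpl10 was lowest and the ratio 27.5.

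The second pair behaved alike in level. Rpl39l had 2750, 2563 and 2337 normalized counts in Prm2+/+, 2550, 2605 and 3083 in Prm2+/-, and 2634, 2564 and 2584 in Prm2-/-. Rpl39, its X-linked parent, had 231, 218 and 137 in Prm2+/+, 340, 210 and 288 in Prm2+/-, and 275, 255 and 248 in Prm2-/-. Again the paralog lay far above its parent in each library. The ratio per kb was 12.3 ± 2.72 in Prm2+/+, 9.21 ± 2.25 in Prm2+/- and 9.05 ± 0.383 in Prm2-/- (SD, n = 3).

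The share of a paralog in the summed normalized counts of paralog and parent was then compared between the genotypes. For Rpl10l it was 95.3% ± 0.582 in Prm2+/+, 94.5% ± 0.899 in Prm2+/- and 95.6% ± 1.36 in Prm2-/-. With Rpl10-ps3, a row of the table whose gene holds the whole coding sequence of Rpl10 unchanged (642 of 642 bases), added to the parent, the share was 92.8% ± 0.516, 91.8% ± 1.14 and 93.0% ± 1.22. For Rpl39l the share was 93.0% ± 1.3, 90.7% ± 2.24 and 90.9% ± 0.353 in the same order. Replicate 3 of Prm2+/+, where Rpl39 was lowest, had the highest share (94.5%). The 3 Prm2-/- libraries (90.5%, 91.0% and 91.2%) all lay below the Prm2+/+ libraries (92.3%, 92.2% and 94.5%), a difference of -2.05 percentage points. In the exact 2-sided permutation test of 3 against 3 this gave p = 0.1, the smallest p the design allows, and 0.6 after Benjamini-Hochberg adjustment over 18 tests.

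Further paralogs were expressed without outweighing their parent on the count. Rpl22l1, whose protein shares 70.3% of residues with that of Rpl22, held 38.7% ± 7.60 of the pair in Prm2+/+, 40.6% ± 8.18 in Prm2+/- and 44.0% ± 5.26 in Prm2-/-. Rps27l, which differs from Rps27 at 3 of 84 residues, held 25.1% ± 1.26, 24.8% ± 1.40 and 23.1% ± 2.18. Rpl7l1, only 40.7% identical to Rpl7, held 10.7% ± 0.870, 15.2% ± 2.45 and 12.1% ± 0.350. The Rpl7l1 share in each Prm2+/- library was above all Prm2+/+ and all Prm2-/- libraries (p = 0.1 each, adjusted p = 0.6, exact permutation test), where Rpl7l1 itself had 123, 124 and 112 normalized counts, against 115, 126 and 131 in Prm2+/+. Rpl3l, the striated muscle counterpart of Rpl3, had 2 recovered counts in 1 Prm2+/- library and 0 in the other 8, and each 0 allows up to 3 counts, covering counting error only.

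**Figure D2:**
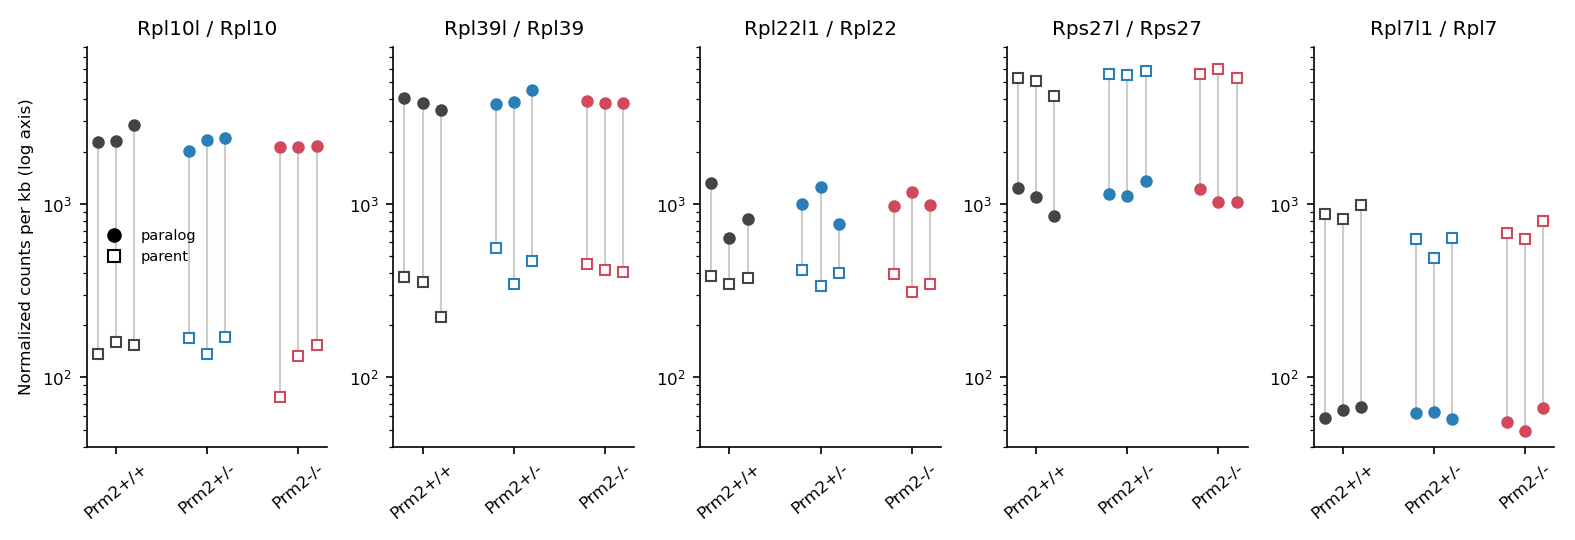
Normalized counts per kb (log axis) of 5 paralogs (filled circles) and their parents (open squares) in each of the 9 libraries, with a line joining the values of 1 library. Rpl10l and Rpl39l lie far above their X-linked parents in every library (16.5 and 12.3 times in Prm2+/+), Rpl22l1 lies above Rpl22 per kb (2.47 times), and Rps27l and Rpl7l1 lie below.

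Rps27 has another near copy among the members. Rps27rt encodes the same 84 residues, with 252 of 252 coding bases identical, and 88.4% of its 50-base words at the 3′ end occur in Rps27. Its level was 350, 373 and 334 normalized counts in Prm2+/+, 374, 363 and 458 in Prm2+/-, and 362, 335 and 358 in Prm2-/-, and the division of reads between both genes is uncertain.

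The comparison of Prm2-/- with Prm2+/+ asks whether loss of Prm2 alters the transcripts of the testis. No ribosomal protein gene was called differentially expressed, that is with a Benjamini-Hochberg adjusted p under 0.05 in limma over all 14893 tested features and a log2 fold change (LFC) beyond 0.5. The count was 0 of 81 members by limma, and 0 by edgeR and by DESeq2, where limma called 0.181% of all features. At an unadjusted p under 0.05 it was 9 members (11.1%) against 7.33% of all features, 6 of them higher and 3 lower in Prm2-/-, and edgeR and DESeq2 gave 9 as well. The libraries of both genotypes did not overlap for 12 members (14.8%), against 14.0% of all features and 16.2% of those with a mean of at least 100. The median LFC of the members was 0.01 and that of all features 0.02. The median standard error of a member was 0.12 on the log2 scale (0.25 over all features), and for 75 of 81 members the 95% interval of the LFC lay within 1 in either direction, for 54 within 0.5.

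In Prm2+/- against Prm2+/+, which shares the Prm2+/+ libraries, limma, edgeR and DESeq2 again called 0 of 81 members, where limma called 0.0806% of all features. An unadjusted p under 0.05 was reached by 1 member, Rpl7 (1.23% against 4.24% of features, and 1 by edgeR and by DESeq2 too), and 4 members (4.94%) did not overlap, against 9.44% of features and 8.51% of those with a mean of at least 100. The median LFC was -0.02 for members and 0.01 for all features, and 73 intervals lay within 1 and 57 within 0.5.

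In Prm2-/- against Prm2+/-, which shares the Prm2-/- and Prm2+/- libraries with the comparisons above, the 3 tools called 0 of 81 members, with 0.175% of all features called by limma. At an unadjusted p under 0.05 there were 7 members (8.64% against 5.44%), all higher in Prm2-/- (7 by edgeR and by DESeq2 too). The libraries did not overlap for 23 members (28.4%), 15 with Prm2-/- above and 8 with Prm2-/- below, against 14.7% of all features and 18.1% of those with a mean of at least 100. The median SD of the members within a genotype was 0.15 on the log2 scale. It was 0.19 for the 5890 features with a mean of at least 100, which include the 81 members and were not matched to them in level. The part of this spread in the count without overlap was not tested. The median LFC was -0.03 (-0.01 over all features), and 75 intervals lay within 1 and 50 within 0.5.

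**Figure D3:**
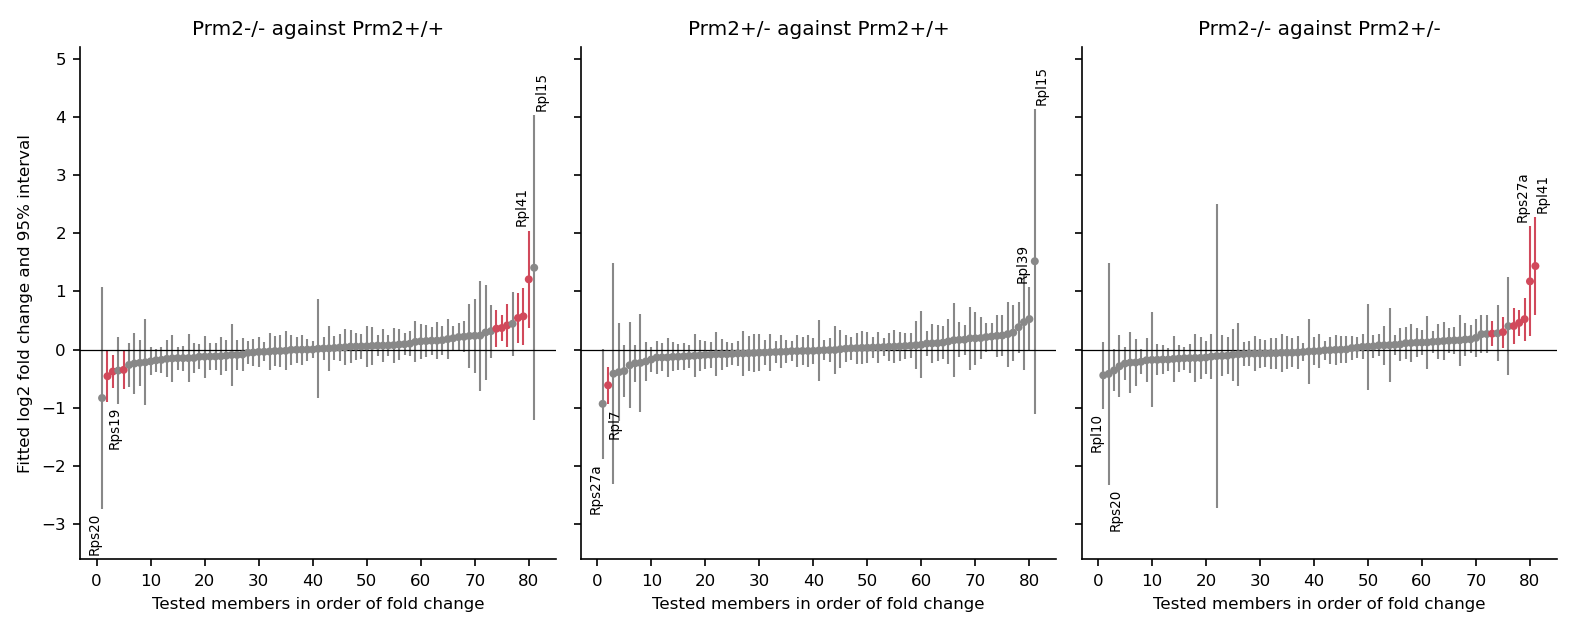
Fitted LFC of the 81 tested members with its 95% interval, in order, for each of the 3 comparisons; red marks an unadjusted p under 0.05, and the 2 lowest and 2 highest are named. The LFC lies beyond 0.5 in either direction for 5, 4 and 3 members from left to right, and 0 members passed the adjusted threshold.

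The subunits and roles were counted by direction, with no test of a difference between them. In Prm2-/- against Prm2+/+, 24 large subunit names were higher and 24 lower, and 18 small subunit names were higher and 15 lower. The stalk genes Rplp0, Rplp1 and Rplp2, whose proteins recruit the GTPases of translation, had LFCs of 0.08 ± 0.13, 0.09 ± 0.12 and 0.15 ± 0.12 (± SE), with adjusted p-values between 0.763 and 0.890 in limma, and 0.16, 0.21 and 0.29 without replicate 3 of Prm2+/+. All 3 were higher in Prm2-/- than in Prm2+/- too, by 0.14, 0.11 and 0.17, and lower in Prm2+/- than in Prm2+/+, by at most 0.0628, a direction that turned for all 3 without replicate 3 of Prm2+/+. Without replicate 3 of Prm2-/-, Rplp0 turned to -0.0142 against Prm2+/+. Of the 4 X-linked members, 2 were higher and 2 lower in Prm2-/- against Prm2+/+. In Prm2+/- against Prm2+/+, 3 were higher and 1 lower. In Prm2-/- against Prm2+/-, where 7601 of 14893 features were lower, 4 were lower, with a median LFC of -0.11. There Rpl39 turned to 0.0746 without replicate 1 of Prm2+/-, and Rpl36a to 0.00862 without replicate 3 of Prm2-/-. Rpl10 stayed between -0.65 and -0.15 with each library left out. Rpsa had an LFC of -0.14 ± 0.11 (adjusted p = 0.759), or -0.0363 without replicate 3 of Prm2+/+. The testis paralogs Rpl10l and Rpl39l had LFCs of -0.20 ± 0.10 (adjusted p = 0.719) and 0.03 ± 0.09 (adjusted p = 0.953). All Prm2-/- libraries lay below all Prm2+/+ libraries for Rpl10l, and they overlapped for Rpl39l. Without replicate 3 of Prm2+/+ the LFCs were -0.0960 for Rpl10l and -0.0335 for Rpl39l.

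Rpl41, which encodes the smallest protein of the ribosome, was the member with the largest difference among those with an unadjusted p under 0.05. It had 540, 220 and 178 normalized counts in Prm2+/+, 253, 203 and 255 in Prm2+/-, and 614, 663 and 643 in Prm2-/-. The Prm2-/- libraries were all above the other 6, with replicate 1 of Prm2+/+ nearest to them. The LFC was 1.21 (SE 0.36, adjusted p = 0.533, limma) against Prm2+/+ and 1.44 (SE 0.36, adjusted p = 0.612) against Prm2+/-. Without replicate 1 of Prm2+/+ both comparisons passed the threshold (LFC 1.69, adjusted p = 0.00549, and LFC 1.44, adjusted p = 0.0133), as did that with Prm2+/- when only its 6 libraries were fitted (adjusted p = 0.00816). Over the alternatives tried the adjusted p ranged from 0.00549 to 0.892 against Prm2+/+, and from 0.00816 to 1 against Prm2+/-.

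The sequence of Rpl41 limits what this row measures. Its coding sequence without the stop codon, on chromosome 10 from 128548114 to 128549305, is shown because a second gene holds all 75 bases of it.
Rpl41: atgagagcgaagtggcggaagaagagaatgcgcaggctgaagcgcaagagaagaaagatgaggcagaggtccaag
That gene is Gm10076 (ENSMUSG00000060143), listed as lncRNA on chromosome 14, and 61.5% of the 50-base words at the 3′ end of Rpl41 occur in it. Gm10076 was the more abundant row, with 2415, 2266 and 3388 normalized counts in Prm2+/+, 2450, 2376 and 2555 in Prm2+/-, and 2544, 2513 and 2619 in Prm2-/-. The library with the least Rpl41, replicate 3 of Prm2+/+, had the most Gm10076. Replicate 2 of Prm2+/+, also low in Rpl41, had the least Gm10076, and the Prm2-/- libraries, highest in Rpl41, all had more Gm10076 than that replicate. How reads were divided between the rows was not tested. Added together, the rows gave 2954, 2486 and 3566 in Prm2+/+, 2703, 2579 and 2811 in Prm2+/-, and 3158, 3175 and 3262 in Prm2-/-. The Prm2-/- sums lay above those of 5 of the other 6 libraries, and replicate 3 of Prm2+/+ was above them. On this sum, an alternative chosen after seeing the data, the LFC was 0.11 (SE 0.12, adjusted p = 0.812, limma) against Prm2+/+ and 0.25 (SE 0.12, adjusted p = 0.952) against Prm2+/-. The LFC of 0.11 includes replicate 3 of Prm2+/+, which had the highest sum, and no fit of the sum without that library was made.

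Rpl35, a protein near the exit of the large subunit tunnel, had the smallest p among the members in both comparisons with Prm2-/-. It had 820, 854 and 1021 normalized counts in Prm2+/+, 840, 809 and 874 in Prm2+/-, and 1210, 1099 and 1163 in Prm2-/-. The Prm2-/- libraries lay above the other 6. The LFC was 0.37 (SE 0.10, adjusted p = 0.459, limma) against Prm2+/+ and 0.46 (SE 0.10, adjusted p = 0.434) against Prm2+/-. DESeq2 gave an adjusted p of 0.0127 for the latter, and limma without replicate 3 of Prm2+/+ one of 0.0433, with an LFC under 0.5 in both cases. Gm2000 on chromosome 1 holds 368 of the 369 coding bases of Rpl35 and 96.0% of its 50-base words at the 3′ end, at 638, 653 and 894 normalized counts in Prm2+/+, 606, 642 and 728 in Prm2+/-, and 686, 685 and 779 in Prm2-/-. With Gm2000 added, the LFC was 0.21 (adjusted p = 0.719) against Prm2+/+ and 0.32 (adjusted p = 0.872) against Prm2+/-. The sums were 1458, 1507 and 1915 in Prm2+/+ and 1895, 1784 and 1942 in Prm2-/-. Replicate 3 of Prm2+/+ was thus the highest of its genotype, and no fit of the sum without that library was made.

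**Figure D4:**
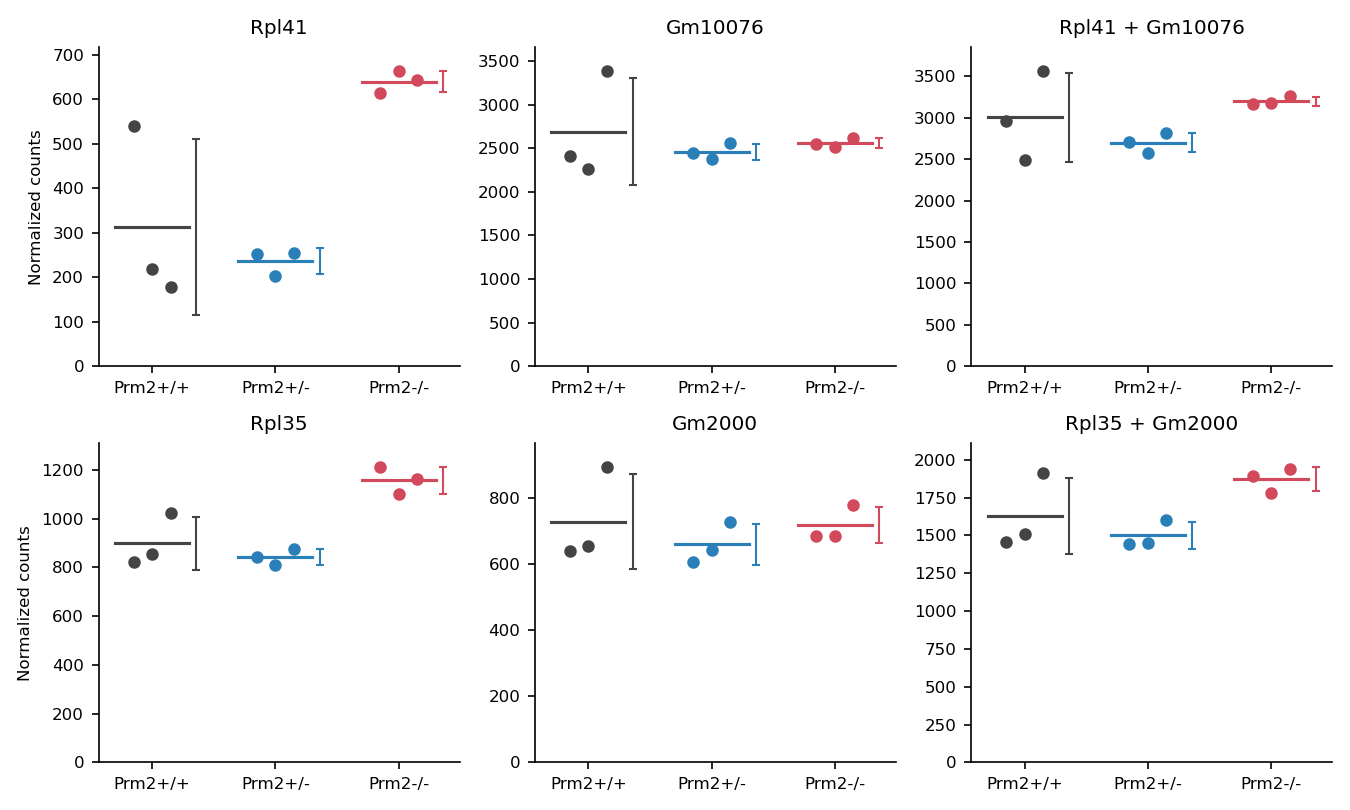
Normalized counts of Rpl41 and Rpl35 (left), of the rows of their near-identical genes Gm10076 and Gm2000 (middle) and of the sums (right), by genotype; dots are libraries, horizontal lines means, and the bars beside them 1 SD (n = 3). The Prm2-/- libraries of Rpl41 (614 to 663) lie above all others (178 to 540), and the sums with Gm10076 of Prm2-/- (3158 to 3262) lie above those of all others (2486 to 2954) apart from replicate 3 of Prm2+/+ (3566).

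Shared sequence was common in the family. Of the 82 members, 12 had no 50-base word of their last 300 transcript bases in another gene (Rpl10l, Rpl39l and Rps20 among them), 67 shared over 10% of these words and 40 shared over 50%. For 11 members the table kept rows of non-member genes that each hold at least 10% of these words, from 12.4% to 96.0%. Adding these rows to their member left 0 members called in each comparison. In addition, 26 members overlap another gene, 24 of them one on the opposite strand, and 28 contain snoRNA genes.

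Rpl7, of the large subunit, had the smallest p in Prm2+/- against Prm2+/+. Its values were 1011, 949 and 1147 normalized counts in Prm2+/+, 730, 570 and 739 in Prm2+/-, and 794, 727 and 924 in Prm2-/-. All Prm2+/- and all Prm2-/- libraries lay below the Prm2+/+ libraries. The LFC was -0.61 (SE 0.14, adjusted p = 0.739, limma) in Prm2+/- and -0.35 (SE 0.14, adjusted p = 0.650) in Prm2-/-, and over the alternatives the adjusted p ranged from 0.0580 to 0.900 for Prm2+/-. Of its 50-base words at the 3′ end, 78.0% occur in other genes.

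Rps27a encodes a small subunit protein made as a fusion with ubiquitin. It had 1135, 1060 and 895 normalized counts in Prm2+/+, 481, 1103 and 291 in Prm2+/-, and 1311, 1160 and 1167 in Prm2-/-. Replicates 1 and 3 of Prm2+/- were low and replicate 2 was like the wildtype. The LFC in Prm2-/- against Prm2+/- was 1.17 (SE 0.41, adjusted p = 0.870, limma), and without replicate 2 of Prm2+/- it was 1.69 with an adjusted p of 0.0460. Without replicate 3 of Prm2+/- it was 0.73. In Prm2+/- against Prm2+/+ it was -0.93 (adjusted p = 0.842), and -1.45 and -0.49 without replicates 2 and 3 of Prm2+/-. Other genes hold 86.9% of its 50-base words at the 3′ end.

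Rps28 and Rpl30 were higher in each Prm2-/- library than in each Prm2+/+ library. Rps28, of the small subunit, had 1577, 1454 and 914 normalized counts in Prm2+/+, 1745, 1520 and 1757 in Prm2+/-, and 1905, 1822 and 1870 in Prm2-/- (LFC 0.54, adjusted p = 0.603 against Prm2+/+). Rpl30, of the large subunit, had 1022, 909 and 560 in Prm2+/+, 1042, 951 and 963 in Prm2+/-, and 1310, 1235 and 1057 in Prm2-/- (LFC 0.57, adjusted p = 0.619). In both genes replicate 3 of Prm2+/+ was lowest, and without it the LFC was 0.30 for Rps28 and 0.31 for Rpl30.

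Rps12 and Rps19, of the small subunit, lay on the other side. Rps12 had 1507, 1422 and 1866 normalized counts in Prm2+/+, 1288, 1475 and 1584 in Prm2+/-, and 1251, 1251 and 1167 in Prm2-/- (LFC -0.38, adjusted p = 0.573 in limma). Rps19, a gene known from Diamond-Blackfan anaemia, had 1103, 1102 and 1467 in Prm2+/+, 1091, 756 and 1002 in Prm2+/-, and 1078, 854 and 748 in Prm2-/- (LFC -0.46, adjusted p = 0.674). For both genes the Prm2-/- libraries were below all Prm2+/+ libraries, and replicate 3 of Prm2+/+ was the highest of the 9. Without it the LFC was -0.26 for Rps12 and -0.32 for Rps19, and Rps19 was no longer among the members with an unadjusted p under 0.05.

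**Figure D5:**
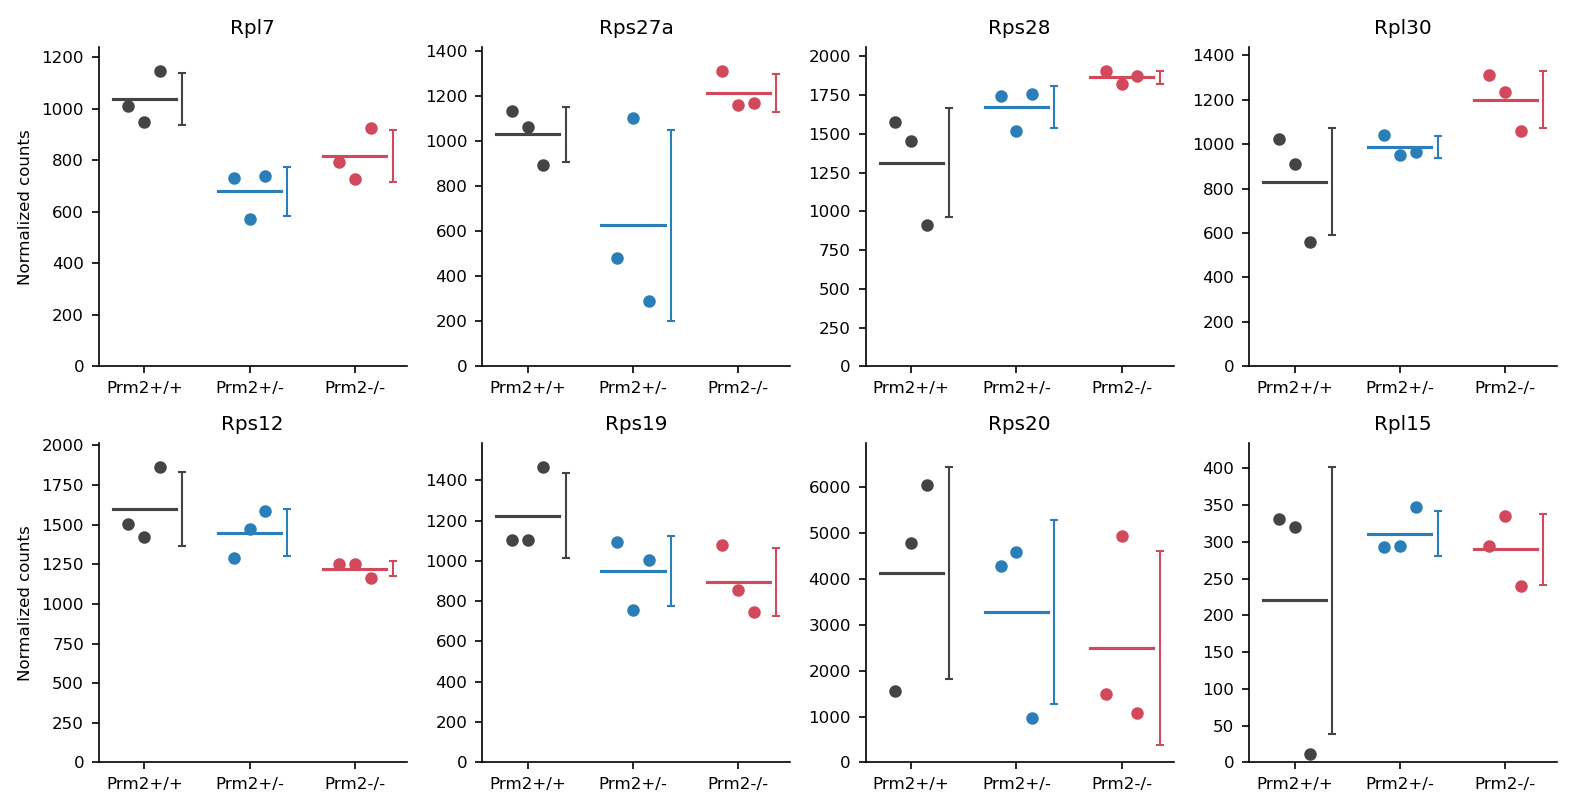
Normalized counts of 8 members by genotype, with dots for libraries, horizontal lines for means and bars of 1 SD (n = 3). Rpl7 is highest in Prm2+/+ (949 to 1147), Rps20 takes a low level (968 to 1554) or a high one (4282 to 6046) within each genotype, and Rpl15 is at 11.0 in 1 library against 240 to 347 in the other 8.

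Members differed more than 4-fold within a genotype in 2 of 81 cases (2.47%), against 12.4% of the features with a mean of at least 100. Rps20, of the small subunit, had 1554, 4797 and 6046 normalized counts in Prm2+/+, 4282, 4588 and 968 in Prm2+/-, and 1491, 4935 and 1084 in Prm2-/-. Each genotype thus held libraries at the lower and at the upper level, and the LFC of -0.83 in Prm2-/- against Prm2+/+ (SE 0.82, adjusted p = 0.795) was within that spread, and was -0.45 without replicate 3 of Prm2+/+. Rpl15, of the large subunit, had 331, 320 and 11.0 in Prm2+/+, 293, 294 and 347 in Prm2+/-, and 294, 336 and 240 in Prm2-/-. Its LFC of 1.41 against Prm2+/+ (SE 1.13, adjusted p = 0.760) rested on replicate 3 of Prm2+/+, and without that library it was -0.18. edgeR gave 0.40.

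The other members with large values in a comparison had smaller differences. Rpl29 was higher in Prm2-/- (269, 258 and 211 normalized counts) than in Prm2+/- (174, 174 and 163), with an LFC of 0.52 (adjusted p = 0.799, limma). Rpl28 differed by 0.40 in the same comparison (adjusted p = 0.870). Rpl39 had LFCs of 0.44 in Prm2-/- and 0.52 in Prm2+/- against Prm2+/+ (adjusted p = 0.720 and 0.842). Without replicate 3 of Prm2+/+, its lowest library, they were 0.21 and 0.29. Rpl10 had an LFC of -0.36 in Prm2-/- against Prm2+/+ (adjusted p = 0.751) and of -0.44 against Prm2+/- (adjusted p = 0.963). Without replicate 1 of Prm2-/-, where it was lowest, they were -0.0636 and -0.15. Rpl7a and Rpl23 were among the 5 largest in their direction in Prm2+/- against Prm2+/+ (adjusted p = 0.842 for both). Rpl7a had 472, 476 and 181 normalized counts in Prm2+/+ and 454, 410 and 585 in Prm2+/-, and its LFC of 0.47 was 0.01 without replicate 3 of Prm2+/+. The LFC of Rpl23 was -0.39 and ranged from -0.74 to -0.19 with 1 library left out at a time, being nearest 0 without that same replicate. In Prm2-/- against Prm2+/- the LFC of Rpl27a was -0.36, and that of Rpl18 was -0.29, or -0.10 without replicate 3 of Prm2+/- and -0.50 without replicate 1 (adjusted p = 0.916 and 0.986).

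How many members passed the unadjusted threshold depended on single libraries. In Prm2-/- against Prm2+/+ the 9 members became 14 without replicate 3 of Prm2+/+ (12 higher and 2 lower, with 8.37% of all features), and 4 without replicate 1 or without replicate 2 of Prm2-/- (4.94% of members, against 5.45% and 5.43% of all features). In Prm2+/- against Prm2+/+ the 1 became 5 without replicate 1 of Prm2+/+ (6.17% of members against 6.16% of all features) and 4 without replicate 2 of Prm2+/- (4.94% against 3.86%). In Prm2-/- against Prm2+/- the 7 became 12 without replicate 3 of Prm2+/+ (8.29% of all features), a library that enters there only through the shared spread.

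Other lists of translation genes had 0 calls, and their counts at an unadjusted p under 0.05 are given beside 7.33%, 4.24% and 5.44% of all features in the same order of comparisons. Of 76 tested mitochondrial ribosomal protein genes, which build the ribosome of the mitochondrion, 0 were called in any comparison, with 11, 5 and 5 at an unadjusted p under 0.05 for Prm2-/- against Prm2+/+, Prm2+/- against Prm2+/+ and Prm2-/- against Prm2+/- (14.5%, 6.58% and 6.58%), and medians of 0.02, -0.02 and 0.00. Of 57 ribosome biogenesis genes 0 were called (3, 2 and 4 unadjusted, or 5.26%, 3.51% and 7.02%, medians -0.02, -0.03 and -0.03). Of 41 translation factors 0 were called (5, 0 and 2 unadjusted, or 12.2%, 0% and 4.88%, medians -0.01, -0.04 and -0.07), and of 15 regulators of ribosomal protein mRNAs and ribosomal protein kinases 0 were called (1, 0 and 0 unadjusted, or 6.67%, 0% and 0%, medians 0.04, 0.08 and -0.02). Fau and Rack1, further ribosome genes not covered by the naming rule, were tested and 0 were called.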

How the data were processed

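The samples were 9 testis libraries, 3 of each Prm2 genotype. Per the labels and the methods, the authors trimmed 50-base reads (Trim Galore 0.4.5), mapped them to GRCm38 (HISAT2 2.1), quantified genes (StringTie 1.3.3), removed pseudogenes by biotype and applied DESeq2. In the deposited table the authors give a signal per gene, namely counts divided by 1 size factor per sample. All values (100%, tolerance 1e-06) were whole multiples of 1 step per sample, which gave the recovered counts. StringTie derives counts from coverage, so they may be on another scale than sequenced reads, and intervals cover counting error only.

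limma 3.58.1 (lmFit, eBayes with trend, genotype only, 9 samples, two-sided) was fitted to log2 of the normalized count plus 1 for the 14893 features that passed filterByExpr. An LFC is on this scale, which understates changes of low genes. edgeR 4.0.16 and DESeq2 1.42.0 on recovered counts were alternatives. R was 4.3.3. Transcript lengths (median of protein-coding transcripts), positions and sequences are from GENCODE M21 (GRCm38), which held all 82 members. The fit was tested on simulated data. Of Rpl3l, too few counts remained for a test.

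The members, lists, tests and alternatives were chosen with earlier results of these data known. Genes were named if called, if a paralog or its parent, a stalk gene or Rpsa, among the 5 largest rises or falls, the 5 highest or lowest levels in Prm2+/+, or over 4-fold apart within a genotype. Rps27rt, Rps15a, Gm10076, Gm2000 and Rpl10-ps3 were named after their values were seen.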

Additional observations from a re-analysis of the deposited data

How the results depend on the processing

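The count of called members was 0 in the 3 comparisons and stayed 0 under edgeR, DESeq2, pseudocounts of 0.5 and 5, both filters on low values, TMM scaling, the replicate block (0 in each) and the sum with near-identical rows, which was chosen after seeing the data. It was 1 (Rpl41) for Prm2-/- against Prm2+/- with only the 6 samples compared, since the spread was then estimated without Prm2+/+. With each library left out in turn it ranged from 0 to 1 for Prm2-/- against Prm2+/+ (Rpl41 without Prm2+/+ replicate 1) and from 0 to 1 for Prm2-/- against Prm2+/- (Rpl41 without Prm2+/+ replicate 1, Rps27a without Prm2+/- replicate 2), and was 0 for Prm2+/- against Prm2+/+. Replicate numbers did not pair the samples (correlation of deviations -0.04 to 0.04). With the replicate block 9, 3 and 8 members had an unadjusted p under 0.05 (11.1%, 3.70% and 9.88%), against 9, 1 and 7 without it. Of all features, 7.46%, 4.39% and 5.34% did so with the block, and 7.33%, 4.24% and 5.44% without it.

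Among the members with the largest differences and the paralog shares, directions changed when a library was left out, and the cause was not tested. Over all 81 members, edgeR gave the opposite sign for 4, 1 and 2 and DESeq2 for 1, 2 and 1, each with an absolute LFC of at most 0.0161. With each library left out, the LFC of Rpl15 ranged from -0.18 to 2.21 (Prm2-/- against Prm2+/+) and from -0.0686 to 2.32 (Prm2+/- against Prm2+/+), and that of Rpl39l from -0.0335 to 0.0838 (Prm2-/- against Prm2+/+), each negative without Prm2+/+ replicate 3. The LFC of Rps20 ranged from -1.01 to 0.32 (Prm2+/- against Prm2+/+, positive without Prm2+/- replicate 3) and from -1.15 to 0.0232 (Prm2-/- against Prm2+/-, positive without Prm2-/- replicate 3). Share differences in percentage points also changed sign. The share of Rpl10l in Prm2-/- against Prm2+/+ ranged from -0.41 to 0.901, Rpl39l in Prm2-/- against Prm2+/- ranged from -1.08 to 1.07, Rpl22l1 in Prm2+/- against Prm2+/+ ranged from -2.65 to 6.05, Rpl22l1 in Prm2-/- against Prm2+/- ranged from -0.0931 to 7.94 and Rps27l in Prm2+/- against Prm2+/+ ranged from -1.14 to 0.346. In the exact test of 3 against 3 the smallest p is 0.1, so no share could pass.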

Other observations

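Markers of other cell types gave 0 calls in each comparison by limma. Peritubular myoid markers, of the contractile cells around the tubules, summed to between 293 and 325 normalized counts in Prm2+/+, between 254 and 277 in Prm2+/- and between 226 and 271 in Prm2-/-. Of the 3 tested, 2 had an unadjusted p under 0.05 in limma in Prm2-/- against Prm2+/+, where 7.33% of all features did. In Prm2+/- against Prm2+/+ it was 1 (4.24% of all features), and in Prm2-/- against Prm2+/- it was 0 (5.44%). Of the 6 elongating spermatid markers tested, 1 reached it in Prm2-/- against Prm2+/+. Leydig cell markers, of the testosterone-producing cells, summed to between 1795 and 2026 in Prm2+/+, between 1981 and 2560 in Prm2+/- and between 1943 and 2154 in Prm2-/-. Spermatogonial markers summed to between 253 and 392 in Prm2+/+ and between 281 and 336 in Prm2-/-, and round spermatid markers to between 4535 and 4904 and between 4690 and 4999. Their part in the values of the ribosomal protein genes was not tested.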
